A study of Mus musculus with 6 samples.

Results

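The cathepsins of the lysosome were followed in articular cartilage of young and aged mice. Their 8 genes, Ctsa, Ctsb, Ctsc, Ctsd, Ctsh, Ctsl, Ctss and Ctsz, were taken from the deposited table by gene name, out of 33971 genes in all. RNA sequencing had been performed on 3 libraries of wild-type (WT) mice aged 2 months and 3 libraries of wild-type mice aged 18 months, and the methods describe the animals as male. No treatment or transgene was part of this comparison. Each library was counted as its own sample. The labels do not say which libraries came from separate animals, so p-values measure the spread between these libraries.

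Cathepsins are proteases that are made as inactive precursors, tagged with mannose 6-phosphate in the Golgi, carried to the acid lysosome and activated there by removal of the propeptide. Cysteine cathepsins cut with a cysteine in the active site, cathepsin D with a pair of aspartates and cathepsin A with a serine. In joints they are known for the intracellular breakdown of proteins taken up or recycled by chondrocytes, macrophages and osteoclasts, and some of them can cleave collagen and aggrecan when they are released. Cystatins and stefins are natural inhibitors of the cysteine cathepsins.

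The libraries held between 48171507 and 59085179 counts, and 20397 genes passed the filter on low counts, all 8 cathepsins among them. The labelled tissue was checked against 16 chondrocyte markers, which took 7.47% to 8.80% of all counts at 2 months and 0.195% to 0.844% at 18 months, and all 16 were called lower at 18 months. Col2a1, the gene of type II collagen, was at 1411 to 3359 FPKM at 2 months and at 12.8 to 21.2 FPKM at 18 months, and Epyc was listed at 0 in every 18-month library. A list of 14 neutrophil markers took 0.00128% to 0.368% of the counts at 2 months and 4.12% to 4.45% at 18 months. The highest of the young values belonged to 2-month replicate 2, which stands apart from the other young libraries, so several calls are also given without it. Leaving out a library because of its high young values tends to raise the fold change of genes that are high in it. Over all genes 5007 of 21489 were then called higher and 4576 lower, against 3047 and 4354 of 20397 with all libraries. Calls without this library are therefore a description only. Among the aged libraries 18-month replicate 1 differed, with the chondrocyte marker Acan at 40.5 FPKM against 4.91 and 4.44 in replicates 2 and 3. Of 11 erythroid markers 3 were called higher, and this list took 0.0248% to 0.668% of the counts at 2 months and 2.73% to 3.61% at 18 months. Counts of Xist, which the inactive X chromosome transcribes, ran from 88239 to 102417 at 2 months and from 11 to 30 at 18 months. That sex pattern divides with age, goes against the stated sex in the 2-month libraries and cannot be told apart from age. In bulk tissue, fewer cells of a type and less RNA per cell cannot be told apart either.

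The family did not move as a block. Ctss and Ctsh were called higher in aged cartilage and none of the 8 was called lower, where a call needed a Benjamini-Hochberg adjusted p-value below 0.05 in edgeR's quasi-likelihood test and a log2 fold change above 1 or below −1. Ctsb was higher and Ctsa and Ctsd were lower with an adjusted p-value below 0.05 but under the fold limit. Ctsc, Ctsl and Ctsz were not past the adjusted p-value. Of all genes tested, 14.9% were called higher and 21.3% lower. Without the fold limit, 3 cathepsins were higher and 2 lower, against 23.4% and 27.9% of all genes. At an unadjusted p-value below 0.05, 3 cathepsins were lower, and DESeq2 also called 0 of them lower past both limits. In counts scaled by TMM, for 4 cathepsins every 18-month library was above every 2-month library, and for 3 every 18-month library was below, which was also seen in 33.9% and 34.6% of all genes. The median log2 fold change of the 8 was 0.68, and that of all tested genes was −0.02. With 8 genes these counts are a description only.

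**Figure D1:**
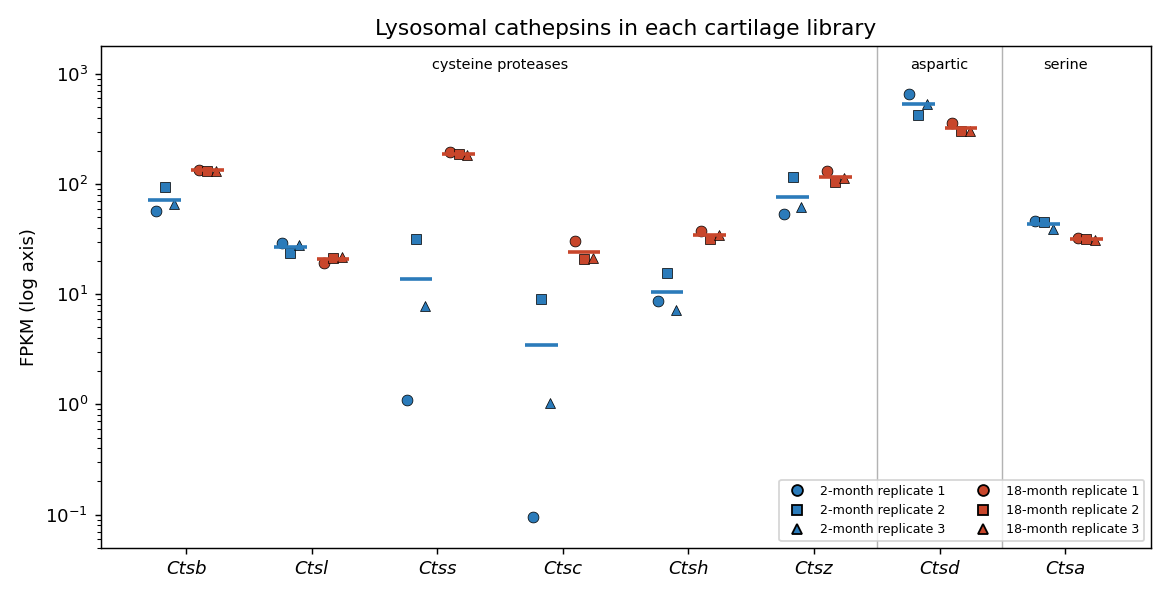
FPKM of each of the 8 cathepsins on a log axis, with 1 point per library (blue, 2 months; red, 18 months; circles, squares and triangles are replicates 1, 2 and 3) and a line at the mean of each age. On this axis the aged points lie closer together than the young points for every gene. For Ctsc 18-month replicate 1 lies apart, at 30.3 against 20.7 and 21.2 FPKM. The young points of Ctss and Ctsc spread widely, from 1.09 to 31.99 FPKM for Ctss, with replicate 2 highest.

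Cathepsin S showed the largest log2 fold change of the 8 genes. Ctss (ENSMUSG00000038642, chromosome 3, 95526786 to 95556403, plus strand) encodes an endopeptidase that stays active at neutral pH and trims the invariant chain in antigen-presenting cells. Its FPKM was 1.09, 31.99 and 7.86 in 2-month replicates 1, 2 and 3 and 197, 187 and 184 in the 18-month replicates. The aged libraries lay within a narrow band far above the young ones, which differed among themselves by more than an order of magnitude. The counts behind these values were 82, 2543 and 600 at 2 months and 15900 to 18007 at 18 months. On the log2 scale the difference was 3.78 with a standard error of 1.11 (edgeR adjusted p = 0.034). The call was lost when any of the 18-month libraries or 2-month replicate 3 was left out, with adjusted p-values of 0.074 to 0.107 in edgeR. Without 2-month replicate 2 the log2 fold change of Ctss was 5.29 (edgeR adjusted p = 0.0042).

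Cathepsins C and H are exopeptidases that remove residues from the amino end of proteins. Ctsc (ENSMUSG00000030560, chromosome 7, 88278085 to 88310888, plus strand) encodes dipeptidyl peptidase I, which activates several serine proteases of neutrophil, mast cell and lymphocyte granules. It had 32, 3111 and 341 counts in the 2-month replicates and 11839, 7571 and 7841 in the 18-month replicates. Its FPKM was 0.0956, 9.15 and 1.04 at 2 months and 30.3, 20.7 and 21.2 at 18 months, so the ages did not overlap. For Ctsc the log2 fold change was 2.80 with a standard error of 1.39, and the test was not past the threshold (edgeR adjusted p = 0.137). It was past it without 2-month replicate 2, at 5.27 (edgeR adjusted p = 0.0061).

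Ctsh (ENSMUSG00000032359, chromosome 9, 90054152 to 90076089, plus strand) encodes the lysosomal aminopeptidase cathepsin H. Its FPKM was 8.66, 15.6 and 7.21 at 2 months and 37.6, 31.6 and 34.8 at 18 months. Every aged value was above every young value, and the spread within each age was small beside the gap. The log2 fold change of Ctsh was 1.67 with a standard error of 0.27 (edgeR adjusted p = 0.0048). Ctsh was past the threshold in all 16 alternatives tried, with log2 fold changes of 1.36 to 2.03.

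Cathepsins B and Z are carboxypeptidases, and cathepsin B can also cut within a chain. Ctsb (ENSMUSG00000021939, chromosome 14, 63122462 to 63145923, plus strand) was at 56.5, 94.0 and 65.4 FPKM at 2 months and at 135, 133 and 132 FPKM at 18 months. The ages did not overlap, and the mean was 72.0 ± 19.6 FPKM at 2 months and 133 ± 1.31 FPKM at 18 months (SD, n = 3 each). Ctsb differed by 0.82 on the log2 scale, with a standard error of 0.19 (edgeR adjusted p = 0.016). After rescaling FPKM to TPM in limma it was 0.48 and not past the threshold (limma adjusted p = 0.124). It was called higher without 2-month replicate 2 (1.03, edgeR adjusted p = 0.0015) and not past the threshold without 2-month replicate 3, 18-month replicate 2 or 18-month replicate 3 (edgeR adjusted p = 0.067, 0.054 and 0.054).

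Ctsz (ENSMUSG00000016256, chromosome 2, 174427493 to 174439039, minus strand) was at 53.1, 116 and 61.7 FPKM at 2 months and at 132, 104 and 113 FPKM at 18 months. The ages overlapped, since 2-month replicate 2 lay above 2 of the aged libraries. Ctsz differed by 0.54 on the log2 scale, with a standard error of 0.28 (edgeR adjusted p = 0.147). Without 2-month replicate 2 it was 0.92 and past the adjusted p-value (edgeR adjusted p = 0.0025), still under the fold limit, and DESeq2 also put it past the adjusted p-value (0.62, DESeq2 adjusted p = 0.039).

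Cathepsin L is a cysteine endopeptidase that also processes other lysosomal enzymes. Ctsl (ENSMUSG00000021477, chromosome 13, 64359337 to 64370890, minus strand) was at 29.4, 23.9 and 27.8 FPKM at 2 months and at 19.4, 21.5 and 21.8 FPKM at 18 months. The lowest young value was above the highest aged value by a small margin. Ctsl differed by −0.45 on the log2 scale, with a standard error of 0.15, just outside the adjusted threshold (edgeR adjusted p = 0.052). It was past it in 6 of 16 alternatives, among them DESeq2 (−0.37, DESeq2 adjusted p = 0.044).

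Cathepsins D and A, which are not cysteine proteases, were both lower. Ctsd (ENSMUSG00000007891, chromosome 7, 142375911 to 142388038, minus strand) encodes the aspartic endopeptidase that does much of the bulk protein breakdown in lysosomes. Its FPKM was 665, 421 and 529.9 at 2 months and 359, 305 and 305 at 18 months, without overlap. The log2 fold change of Ctsd was −0.83 with a standard error of 0.24 (edgeR adjusted p = 0.034). It was not past the threshold when any library other than 2-month replicate 2 was left out, with edgeR adjusted p-values of 0.060 to 0.112.

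Ctsa (ENSMUSG00000017760, chromosome 2, 164832873 to 164840019, plus strand) encodes a serine carboxypeptidase that also protects beta-galactosidase and neuraminidase 1 in the lysosome. Its FPKM was 46.6, 45.5 and 39.3 at 2 months and 32.4, 31.6 and 31.2 at 18 months. Both ages were tight and did not overlap. The log2 fold change of Ctsa was −0.54 with a standard error of 0.11 (edgeR adjusted p = 0.010), and it was past the adjusted p-value in all 16 alternatives.

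Scaling did not turn the direction of any of the 8 differences, whose sign was the same in all 16 alternatives. After rescaling FPKM to TPM the median difference over all genes was −0.37 on the log2 scale, and over the cathepsins it was 0.36. With TPM in limma Ctsd was called lower (−1.15, limma adjusted p = 0.0046).

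Because FPKM is scaled by length, the make-up of the family could be compared within a library. At 2 months the order of the mean FPKM was Ctsd, Ctsz, Ctsb, Ctsa, Ctsl, Ctss, Ctsh and Ctsc. Among neighbours in this order, Ctsz and Ctsb, Ctsl and Ctss, Ctss and Ctsh, and Ctsh and Ctsc overlapped between libraries. At 18 months the order was Ctsd, Ctss, Ctsb, Ctsz, Ctsh, Ctsa, Ctsc and Ctsl, where Ctsb and Ctsz, Ctsh and Ctsa, and Ctsc and Ctsl overlapped. Ctss moved from the sixth to the second place and Ctsl from the fifth to the last.

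Cathepsin D made up most of the young family and less of the aged family. Its share of the summed FPKM of the 8 genes was 77.3%, 55.6% and 71.6% in the 2-month replicates and 38.1%, 36.5% and 36.2% in the 18-month replicates. The share of Ctss was 0.126%, 4.23% and 1.06% at 2 months and 20.9%, 22.5% and 21.8% at 18 months. The share of Ctsb was 9.28% ± 2.95 at 2 months and 15.3% ± 0.887 at 18 months (SD, n = 3 each). An exact two-sided permutation test gave p = 0.1 for 7 of the 8 shares, the smallest value that 3 libraries against 3 allow, and p = 0.4 for Ctsz. The summed FPKM was 740.3 to 861 at 2 months and 834 to 943 at 18 months, so the total overlapped. The ratio of the mean sums was 1.11 with FPKM and 0.825 after rescaling to TPM, which turns its direction. As a share of all counts the 8 genes took 0.250% (95% Wilson interval 0.249% to 0.252%) to 0.277% (0.275% to 0.278%) at 2 months. At 18 months they took 0.282% (0.280% to 0.283%) to 0.312% (0.311% to 0.313%), and these intervals cover counting error only.

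**Figure D2:**
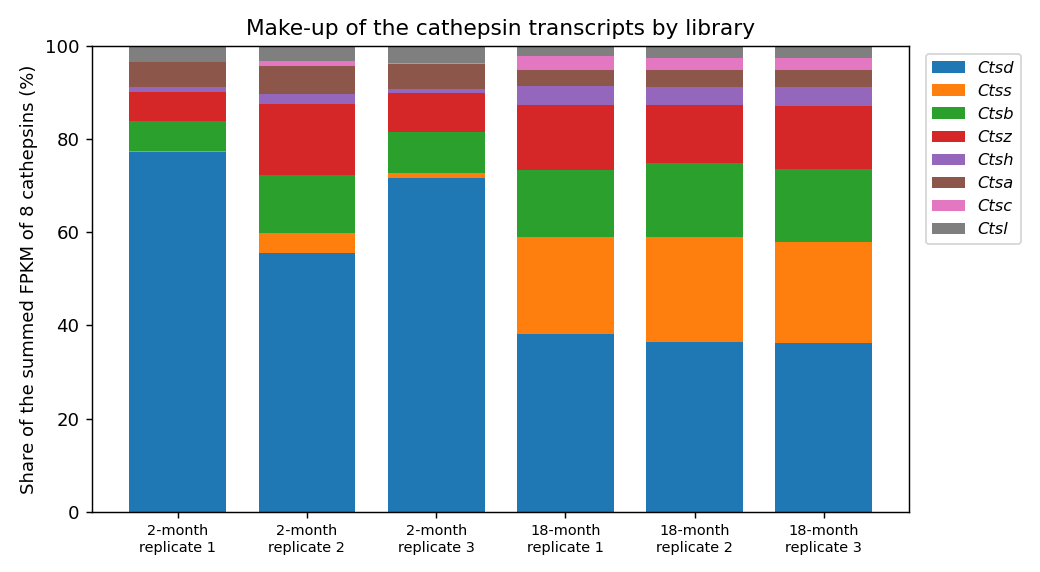
Stacked bars of the share of each cathepsin in the summed FPKM of the 8 genes, in percent, for the 6 libraries. Ctsd takes 55.6% to 77.3% of the young bars and 36.2% to 38.1% of the aged bars, and Ctss is below 5% of each young bar and at 20.9% to 22.5% of the aged bars.

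Promoter windows of RefSeq on GRCm38.p6, from 250 bases before to 50 bases after each start, were matched by symbol for 6 of the 8 members, with 2 starts for Ctsa. They were searched on both strands for CACGTG, the core of the element that the lysosomal regulators TFEB and TFE3 bind, and for GAGGAA, a purine-rich core of the kind that PU.1 and other ETS factors of blood cells bind. CACGTG reads the same on both strands, GAGGAA reads TTCCTC on the other, and no match overlapped another. CACGTG was in 3 of the 7 member windows, those of Ctsd, Ctsl and the second start of Ctsa, and in 7.15% of all 32851 windows. GAGGAA was in 2 of the 7, those of Ctsc and Ctss, which is near its share of 28.3% among all windows. The window of Ctsz and that of the first start of Ctsa held neither, and windows of Ctsb and Ctsh were not analysed here. The CACGTG sites are shown because lysosomal genes are known for this element. A match is a description of the letters, and the part of these sites in the levels was not tested. The stretches run 5′ to 3′ on the strand of the gene with the motif in capitals, and positions count from the start site.
Ctsd at −98, chr7:142387908-142387937, minus strand: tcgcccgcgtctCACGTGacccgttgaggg
Ctsd at −245, chr7:142388055-142388077, minus strand: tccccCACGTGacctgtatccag
Ctsa at −12 of its second start, chr2:164833749-164833778, plus strand: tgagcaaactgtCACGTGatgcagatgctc
Ctsa at 6 after its second start, chr2:164833766-164833795, plus strand: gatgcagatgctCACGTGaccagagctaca
Ctsl at −236, chr13:64370739-64370768, minus strand: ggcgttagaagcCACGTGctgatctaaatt

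The 4 factors of the MiT/TFE family, which switch on lysosomal genes, did not move together. Mitf was called lower (log2 fold change −1.83, edgeR adjusted p = 0.0020), Tfeb was higher under the fold limit (0.83, edgeR adjusted p = 0.024), and Tfe3 was at 4.23 to 4.36 FPKM at 2 months and 4.14 to 5.71 FPKM at 18 months. Tfec, a member found in macrophages, was at 0.0334 to 1.303 FPKM at 2 months and 4.97 to 6.23 FPKM at 18 months (edgeR adjusted p = 0.065, and 0.00013 without 2-month replicate 2).

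Of 6 further cathepsins, 1 was called lower and 0 were called higher in edgeR, against 21.3% and 14.9% of all tested genes. At an unadjusted p-value below 0.05, 0 were higher, while limma on log2(FPKM + 0.1) called 2 higher. Ctsf, a cysteine cathepsin, was at 24.4, 17.8 and 23.1 FPKM at 2 months and at 3.66, 3.66 and 3.70 FPKM at 18 months. This was the clearest fall of a cathepsin (log2 fold change −2.65, standard error 0.18, edgeR adjusted p = 0.00084). Ctso was lower under the fold limit (−0.46, edgeR adjusted p = 0.020). Ctsg, the serine protease of neutrophil granules, was listed at 0, 34.5 and 0.16 FPKM at 2 months and at 360.1 to 404 FPKM at 18 months. Ctse, an aspartic protease of blood-forming and immune cells, was at 0.02, 18.4 and 0.32 FPKM at 2 months and at 81.7 to 104 FPKM at 18 months. Ctsg and Ctse were not past the threshold (edgeR adjusted p = 0.122 and 0.152). Without 2-month replicate 2 both were, and so was Ctsw, a cathepsin of cytotoxic lymphocytes (1.09, edgeR adjusted p = 0.0089), which was at 1.33 to 3.92 FPKM at 2 months and 3.00 to 3.75 FPKM at 18 months.

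Ctsk, the collagen-degrading cathepsin of osteoclasts, overlapped between the ages, with 2-month replicates 1 and 3 below and replicate 2 above every aged library. Its FPKM was 31.96, 933 and 211 at 2 months and 440.1, 546 and 534 at 18 months (log2 fold change 0.36, standard error 1.02, edgeR adjusted p = 0.788). The difference turned to −0.18 without 2-month replicate 1 and was 1.95 without 2-month replicate 2 (edgeR adjusted p = 0.077). Within the young libraries Ctsk and Ctss kept nearly the same ratio, at 29.4, 29.2 and 26.9 FPKM of Ctsk to 1 of Ctss, while the ratio was 2.23, 2.91 and 2.91 in the aged libraries. This pair was chosen after its values had been seen. Cathepsins that mouse placenta makes were also looked up, and of the 8 listed only Ctsj and Ctsq were in the table, with at most 4 counts in any library.

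Among the inhibitors most genes were higher, yet the list took less of all counts. Its share was 0.290% to 0.702% at 2 months and 0.0810% to 0.119% at 18 months. Cst3 had the most counts of the list in every library. Of 10 listed inhibitors that were in the table and tested, 7 were called higher and 1 lower, against 14.9% and 21.3% of all genes. Their median log2 fold change was 5.00, or 4.87 with Stfa2 set at its bound. Cst3, cystatin C, the main secreted inhibitor, was at 4864, 1988 and 4312 FPKM at 2 months and at 692, 384 and 378 FPKM at 18 months (log2 fold change −3.05, standard error 0.50, edgeR adjusted p = 0.0050). Cst7, cystatin F, which acts on cathepsin C in immune cells, was listed at 0, 3.41 and 0.11 FPKM at 2 months and at 45.9 to 50.5 FPKM at 18 months (5.33, edgeR adjusted p = 0.041). Cstb, which guards the cytosol, was at 34.3 to 47.8 FPKM at 2 months and 45.6 to 52.9 FPKM at 18 months (0.27, edgeR adjusted p = 0.157), and its sign turned with TPM to −0.0905.

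The stefin A genes Stfa1, Stfa2, Stfa2l1 and Stfa3 are near-identical neighbours on chromosome 16, so the counting could have divided reads between them, and all 4 were called higher. Stfa2 had 0 counts in the 2-month libraries and 37, 175 and 145 in the 18-month libraries, at least 33.6-fold higher than a floor of 3 counts per library. Ctla2a and Ctla2b, which resemble a cathepsin propeptide, were called higher at 4.10 and 6.08 on the log2 scale (edgeR adjusted p = 0.021 and 0.0021). Cst6 had 4 to 18 counts in any library and was not called. The number of inhibitors called higher fell to 3 without 2-month replicate 3, to 4 without 18-month replicate 1, and to 3 without 18-month replicate 2 or 3.

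**Figure D3:**
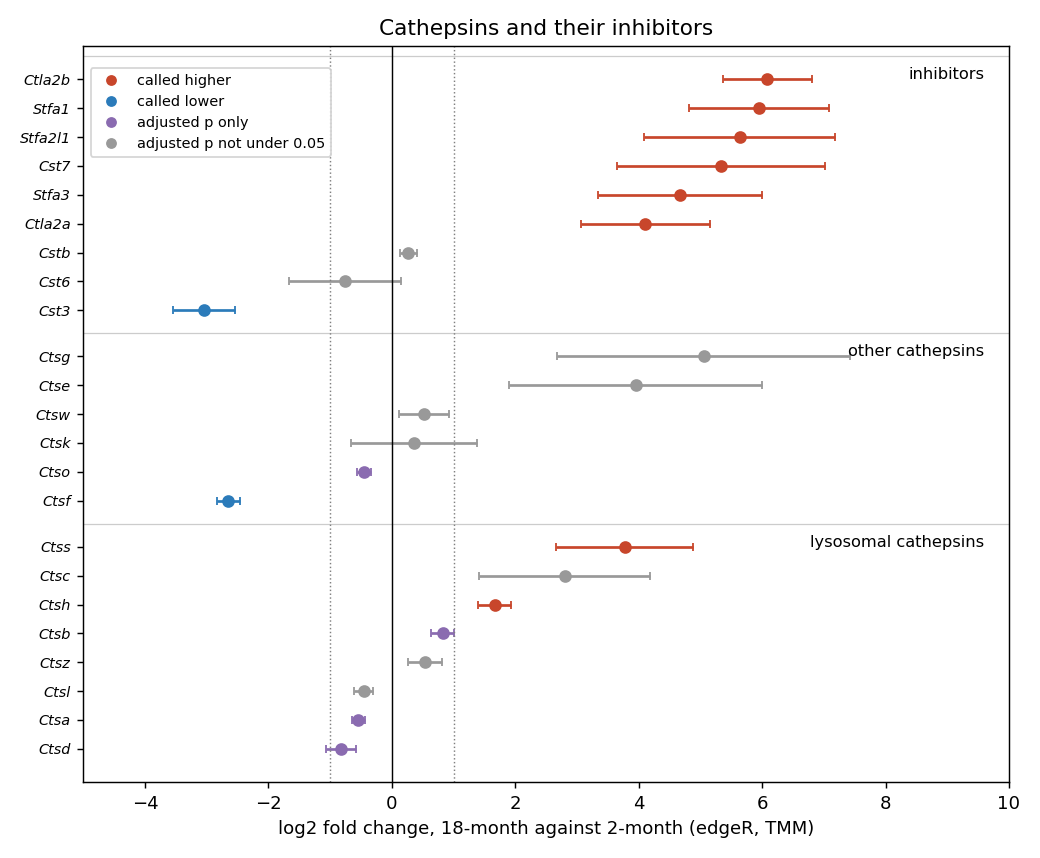
Log2 fold change of 18-month against 2-month cartilage with its standard error (edgeR, TMM) for the 8 lysosomal cathepsins, 6 other cathepsins and 9 inhibitors, coloured by the call, with dotted lines at the fold limits of −1 and 1. Stfa2 is left out because its young libraries had 0 counts. Cathepsins lie on both sides of 0, from −0.83 for Ctsd to 3.78 for Ctss among the 8, while Cst3 lies at −3.05 and most other inhibitors above 4.

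Proteins that act upstream and downstream of the cathepsins were described from lists. Of 15 sorting and maturation genes, 3 were called higher and 1 lower, against 14.9% and 21.3% of all tested genes. M6pr, the small mannose 6-phosphate receptor, was higher (log2 fold change 1.04, edgeR adjusted p = 0.0023), while Igf2r, the large mannose 6-phosphate receptor, fell from 21.9 to 23.3 FPKM at 2 months to 4.23 to 6.35 FPKM at 18 months (−2.28, edgeR adjusted p = 0.0011). Sort1, an alternative sorting receptor, had the largest rise of the list (1.66, edgeR adjusted p = 0.031). Lgmn, the legumain that processes cathepsin precursors, was lower under the fold limit (−0.76, edgeR adjusted p = 0.0040). Psap, the saposin precursor and the most abundant of the list, was higher under the limit (0.84, edgeR adjusted p = 0.0094).

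Among 7 granule serine proteases, a class that includes substrates of cathepsin C, 5 were tested and 1 was called higher, Gzmb (log2 fold change 4.10, edgeR adjusted p = 0.032). Elane, neutrophil elastase, was at 0.12, 59.3 and 0 FPKM at 2 months and 607 to 666 FPKM at 18 months, not past the threshold (edgeR adjusted p = 0.146). Without 2-month replicate 2 it was past it (edgeR adjusted p = 9.8e-05), and 4 of the 5 were called higher, Elane, Prtn3, Gzma and Gzmb. Of 7 genes of antigen presentation by MHC class II, in which cathepsin S works, 5 were called higher (H2-Ab1, H2-Eb1, H2-DMa, H2-DMb1 and Ciita) and 0 lower, with 0 lower at an unadjusted p-value below 0.05 and 0 lower by DESeq2. Their median log2 fold change was 2.88, and of all tested genes 14.9% were called higher and 21.3% lower. Cd74, the invariant chain that cathepsin S cuts, was at 0.71, 71.6 and 6.98 FPKM at 2 months and 272, 189.7 and 192 FPKM at 18 months (edgeR adjusted p = 0.125, and 0.0058 without 2-month replicate 2). All 7 were called higher without 2-month replicate 2. The number called in this list fell to 2 without 2-month replicate 3 and to 3 without any of the 18-month libraries in turn.

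The other lysosomal lists held genes called in both directions. Of all tested genes, 14.9% were called higher and 21.3% lower. Of 23 glycosidases and sulfatases, 5 were called higher and 6 lower, with a median of −0.18. Man2b1, a lysosomal mannosidase, had the largest rise (1.74, edgeR adjusted p = 0.0042) and Gaa, the acid glucosidase that digests glycogen, the largest fall (−3.19, edgeR adjusted p = 0.0016). Hexa, the most abundant of the list, was at 112 to 195 FPKM at 2 months and 131 to 161 FPKM at 18 months. Neu1, the neuraminidase that cathepsin A protects, rose from 7.58 to 9.62 FPKM at 2 months to 19.1 to 22.02 FPKM at 18 months (1.26, edgeR adjusted p = 0.0012), while Glb1, its other partner, overlapped between the ages (edgeR adjusted p = 0.598).

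Of 13 other lysosomal hydrolases, 4 were called higher and 1 lower, with a median of 0.16. The counts here stand beside 14.9% called higher and 21.3% lower among all tested genes. Prcp, a carboxypeptidase, had the largest rise (1.905, edgeR adjusted p = 0.046), and Scpep1, a serine carboxypeptidase related to cathepsin A and the most abundant of the list over both ages, the fall (−1.53, edgeR adjusted p = 0.0018). Of 15 lysosomal membrane genes, 4 were called higher and 1 lower, with a median of −0.06. Laptm5, a membrane protein of blood cells, had the largest rise (2.82, edgeR adjusted p = 0.043), and Laptm4a, the most abundant of the list over both ages, the fall (−1.68, edgeR adjusted p = 0.0023). Of 22 tested subunits of the V-ATPase, the pump that acidifies lysosomes, 1 was called higher and 1 lower, with a median of 0.54. Atp6ap2 was the one that was higher (1.33, edgeR adjusted p = 0.0084) and Atp6v0a4 the one that was lower (−3.21, edgeR adjusted p = 0.025). Without the fold limit 8 subunits were higher, Atp6ap2 among them. Atp6v1g1, the most abundant subunit, was at 77.8 to 97.9 FPKM at 2 months and 89.7 to 104 FPKM at 18 months (edgeR adjusted p = 0.542). Without 2-month replicate 2, 7 subunits were called higher.

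**Figure D4:**
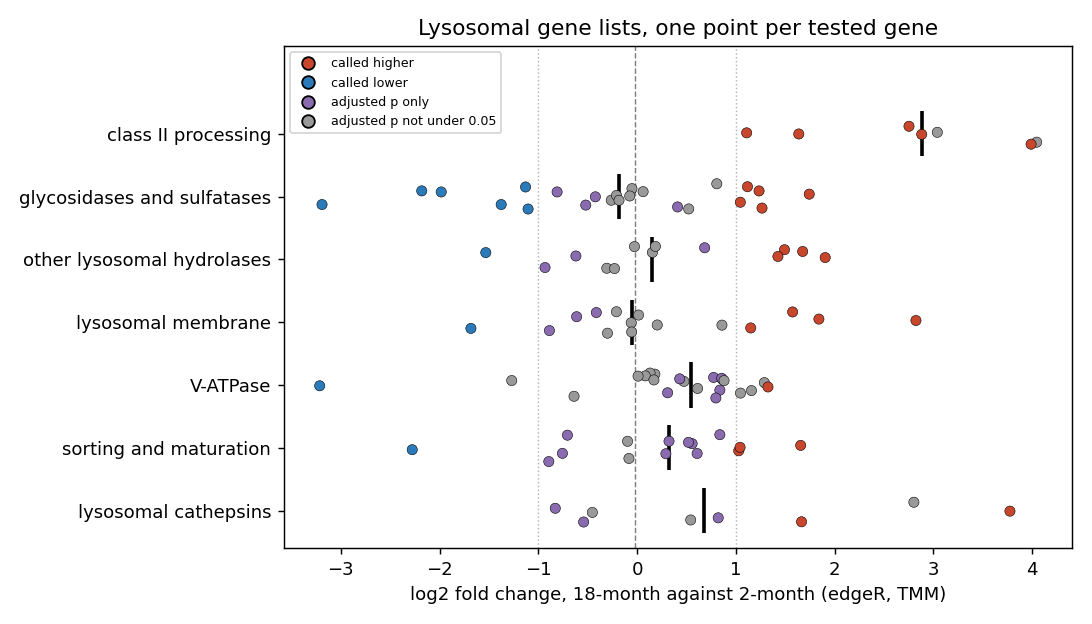
Log2 fold change of 18-month against 2-month cartilage (edgeR, TMM) for each tested gene of 7 lists, 1 point per gene, coloured by the call, with a black bar at the median of the list, a dashed line at the median of all tested genes and dotted lines at −1 and 1. Every list but class II processing has genes on both sides of 0, and the medians run from −0.18 for glycosidases and sulfatases to 2.88 for class II processing.

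Lamp1, an abundant protein of the lysosomal membrane, was at 130.4 to 146 FPKM at 2 months and 144 to 152 FPKM at 18 months (log2 fold change 0.01, edgeR adjusted p = 0.937) and gives a reference within each library. For 1 FPKM of Lamp1, the libraries had 4.57, 3.23 and 3.75 FPKM of Ctsd at 2 months and 2.36, 2.03 and 2.12 at 18 months. For Ctsb the same ratio was 0.388, 0.721 and 0.464 at 2 months and 0.885, 0.884 and 0.918 at 18 months. Neither ratio overlapped between the ages, and neither depends on the scaling of the library. Lamp1 was chosen as the reference after its values had been seen.

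Markers of other cells that the tissue could hold were read beside the cathepsins. Among all tested genes 14.9% were called higher and 21.3% lower. Called higher were 6 of 7 megakaryocyte and 6 of 10 T and NK markers. For endothelial, plasma cell and B lymphocyte markers it was 1 of 7, 1 of 6 and 0 of 9. Of 9 fibroblast markers 6 were called lower and 1 higher, and of 9 osteoblast markers 3 lower and 0 higher. Of 5 tested skeletal muscle markers 4 were called lower, and of 2 tested adipocyte markers 1 higher. Of 15 macrophage markers, 14 were tested and 3 were called higher, C1qa, C1qb and C1qc, and for 11 the aged values all lay above the young values in scaled counts. Mertk, a receptor for the uptake of dead cells, went the other way, at 7.17 to 10.29 FPKM at 2 months and 5.00 to 6.97 FPKM at 18 months (edgeR adjusted p = 0.052), and Cd14 and Vsig4 overlapped between the ages. Of the 14, 11 were called higher without 2-month replicate 2. The list took 0.00824% to 0.0468% of the counts at 2 months and 0.0918% to 0.0927% at 18 months. Csf1r, the receptor that defines the lineage, was at 0.36, 31.2 and 5.10 FPKM at 2 months and 31.98 to 35.1 FPKM at 18 months, and Adgre1 was listed at 0, 4.32 and 0.99 FPKM at 2 months and at 17.5 to 23.6 FPKM at 18 months. For 1 FPKM of Csf1r there were 3.03, 1.02 and 1.54 FPKM of Ctss at 2 months and 5.63, 5.86 and 5.69 at 18 months. For 1 FPKM of C1qa there were 1.09, 1.91 and 1.16 FPKM of Ctss at 2 months and 2.48, 2.27 and 2.23 at 18 months. Csf1r and C1qa rose less than Ctss, at 1.43 and 3.29 on the log2 scale against 3.78, so both ratios were higher at 18 months. The 14 tested markers ran from −0.60 to 3.78, so such a ratio depends on the marker taken. Ratios to the other macrophage markers were not computed.

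Of 8 osteoclast markers 1 was called higher, Itgb3. The list took 0.00948% to 0.270% of the counts at 2 months and 0.110% to 0.133% at 18 months. Acp5, the acid phosphatase that marks osteoclasts, was at 4.18, 993 and 164 FPKM at 2 months and 241 to 288 FPKM at 18 months. Neutrophil markers were not called in edgeR, where 3 of 14 had an unadjusted p-value below 0.05, yet for all 14 the aged values lay above the young values, among them S100a8 at 2.35, 833 and 15.5 FPKM at 2 months and 10127 to 12173 FPKM at 18 months. All 14 were called higher without 2-month replicate 2. Ly6g was listed at 0, 12.4 and 0.35 FPKM at 2 months and at 107 to 121 FPKM at 18 months. Of 7 dendritic cell markers 1 was called higher and 1 lower, and 5 were called higher and 1 lower without 2-month replicate 2. For 5 the aged values all lay above the young values in scaled counts, and for 2 all lay below. The dendritic list took 0.00224% to 0.00538% of the counts at 2 months and 0.00697% to 0.00818% at 18 months. In the young libraries Ctsb, Ctsc, Ctsh, Ctss and Ctsz were highest in replicate 2, and Ctsd was lowest there. Replicate 2 was also the highest young library for 14 of 15 macrophage, all 14 neutrophil and all 8 osteoclast markers. The same held for 10 of 16 chondrocyte markers, Col2a1 among them. It held as well for all 11 erythroid, all 10 T and NK, all 9 B lymphocyte and all 7 endothelial markers. Of 24 V-ATPase genes it held for 21, so the trait is not particular to macrophages, neutrophils or osteoclasts. Its share over all genes was not computed. The part of any of these cells in the cathepsin levels was not tested.

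**Figure D5:**
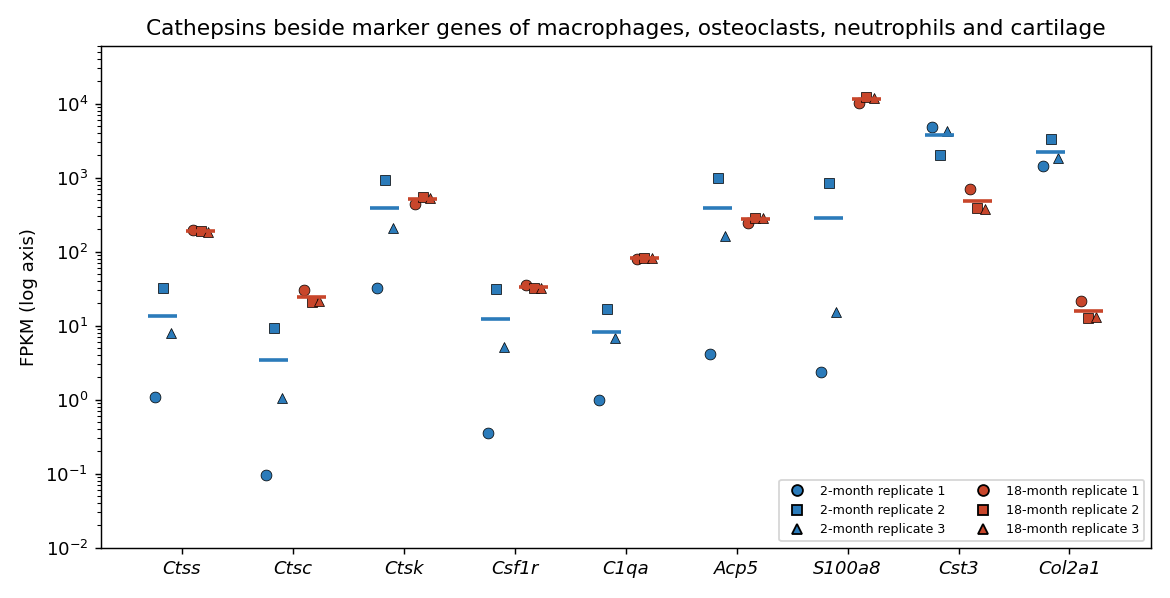
FPKM on a log axis of Ctss, Ctsc and Ctsk beside Csf1r and C1qa (macrophages), Acp5 (osteoclasts), S100a8 (neutrophils), Cst3 (an inhibitor) and Col2a1 (cartilage). Each library is 1 point, with a line at the mean of each age, and values of 0 are not drawn. The young points of the first 7 genes and of Col2a1 fall in the order replicate 1, 3, 2, those of Cst3 do not, and Col2a1 is 1411 FPKM or more in each young library and 21.2 FPKM or less in each aged one.

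For each cathepsin the genes with the most similar pattern were looked up among 13899 tested genes whose mean FPKM reached 1, by the root mean square difference of centred log2 CPM over the 6 libraries. The nearest to Ctss were Xdh (0.18), Lair1 (0.18) and Cd300c2 (0.20), and to Ctsc they were Cyth4 (0.14), Cd74 (0.18) and St8sia4 (0.20). Ctsb was nearest to Atp6v0c-ps2 (0.03), Ythdf2 (0.03) and Usp7 (0.04). Ctsh was nearest to Kif21b, Sbno2 and Tcn2 (0.09 each), and Ctsz to Fhod1 (0.06), Plekhm1 (0.09) and Ints7 (0.09). The nearest to Ctsd were Srp54b, Pdcl3 and Selenok (0.05 each), to Ctsa Itgb1, Zfp609 and Yipf3 (0.05 each), and to Ctsl Smim7 (0.04), Unc50 (0.05) and Socs6 (0.05). The 6 libraries share the contrast of age, so likeness over them is a description.

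Several cathepsin genes overlap exons of another gene in GENCODE M21. Neurl2 and Pltp lie on the other strand of Ctsa, Fdft1 on that of Ctsb, Nelfcd on that of Ctsz and Gm47123 on that of Ctsl. The libraries were strand-specific, but the strand setting of the counting is not given in the sources used here. Nelfcd, with 874 to 1624 counts at 2 months and 3145 to 3380 at 18 months, was called higher (1.22, edgeR adjusted p = 0.0047). It meets Ctsz only at its end, since Nelfcd runs to position 174427502 and Ctsz begins at 174427493. Fdft1 was lower under the fold limit, opposite to Ctsb (−0.50, edgeR adjusted p = 0.043). Pltp and Neurl2 were not called (edgeR adjusted p = 0.817 and 0.255). Gm49369, which was not among the genes analysed here, shares exons with Ctsd on the same strand, and the pseudogene Gm49230 in an exon of Ctsl had at most 1 count in any library. Ctsh overlapped no other gene.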

How the data were processed

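The 6 articular cartilage libraries had been made from poly(A) RNA, with dUTP strand marking and unique molecular identifiers, and read from both ends. Deposited by the authors were raw read counts per gene, as whole numbers, and FPKM values, which correct the counts for gene length and library size. The submitters' processing notes list cutadapt 1.9, HISAT2 2.0.4, UMI-tools, StringTie 1.3.4d, DESeq2 and edgeR without their roles. The genome build and annotation are not given in the sources used here. Positions are those of the deposited table, and 7 of the 8 cathepsins have identical coordinates in GENCODE M21 (GRCm38). Library totals ran from 48171507 to 59085179 counts.

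R 4.3.3 and edgeR 4.0.16 served for the test of the counts (TMM, filterByExpr, quasi-likelihood F test on age alone), with Benjamini-Hochberg adjustment over 20397 genes. Standard errors are the absolute log2 fold change over the root of F. Alternatives were limma 3.58.1 on log2(FPKM + 0.1), with a pseudocount of 1 or with TPM, DESeq2 1.42.0, 3 other scalings, other filters, a replicate block and leaving out each library. Scripts were tested on simulated data. The rule for names took the 8 members and allowed any further cathepsin, inhibitor, granule protease or class II gene, of which those printed were picked with values seen. It also took of each other list the gene with the highest mean FPKM over all libraries and the largest called rise and fall, 3 like genes per member, and defining markers. Lgmn, M6pr, Neu1, Glb1, Tfeb, Tfe3, Tfec, Lamp1, Epyc, Acan, C1qb, C1qc, Mertk, Cd14, Vsig4, Itgb3 and overlapping genes were named after their values were seen. The members, lists and motifs were chosen with earlier results of these data known. Plots used matplotlib 3.10.9.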

Additional observations from a re-analysis of the deposited data

How the results depend on the processing

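All 8 cathepsins kept their sign in the 16 alternatives. Ctsa and Ctsh were also past an adjusted p-value of 0.05 in each of them, and the other 6 were not past it in at least 1. Leaving out each library in turn gave 1 to 4 cathepsins called higher, with 4 without 2-month replicate 2 (Ctsb, Ctsc, Ctsh and Ctss) and 1 without 2-month replicate 3 or any 18-month library, and the ratio of summed FPKM ran from 1.07 to 1.17. The genes called higher ran from 0 to 3 for other cathepsins, 3 to 7 for inhibitors, 0 to 3 for sorting and maturation, 0 to 4 for granule serine proteases, 2 to 7 for class II processing, 3 to 7 for glycosidases and sulfatases, 2 to 4 for other hydrolases, 2 to 5 for the membrane, 1 to 7 for the V-ATPase and 0 to 1 for MiT/TFE factors, and those called lower from 1 to 2 for other hydrolases and 0 to 2 for the V-ATPase. With a mean FPKM of at least 1, 1 sorting gene and 3 glycosidases were called higher, and 2 other hydrolases and 0 V-ATPase genes lower. DESeq2 called 2 granule proteases, 3 V-ATPase genes and 1 MiT/TFE factor higher, and 2 V-ATPase genes lower. Limma with either pseudocount called 2 other cathepsins, 3 granule proteases, 2 V-ATPase genes and 1 MiT/TFE factor higher. With TPM, 2 other cathepsins, 0 sorting genes, 3 granule proteases, 1 glycosidase and 1 MiT/TFE factor were called higher, and 1 cathepsin, 4 sorting genes, 2 other hydrolases, 2 membrane and 2 V-ATPase genes lower, and the ratio of summed FPKM was 0.825. Over all genes TPM gave 3195 calls higher and 6228 lower against 3047 and 4354, and leaving out 2-month replicate 2 gave 5007 and 4576. The sign turned for Cstb with TPM (−0.0905) and for Ctsk without 2-month replicate 1 (−0.18, with a range of −0.18 to 1.95 over the libraries left out). The cause of these shifts was not tested. Deviations of libraries with equal replicate numbers correlated at 0.03, 0.04 and −0.02, and those with unequal numbers at −0.055 to 0.053. With 3 libraries per age these values cannot decide whether the numbers pair the libraries. With the replicate block, 2 cathepsins were called higher and 0 lower, over all genes 2523 and 3509 were called, and Ctsd was at −0.80 (edgeR adjusted p = 0.061). For Ctss and Ctsc the 2-month libraries differed by far more than counting error, so their spread limits the precision.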
